A study of Mus musculus with 8 samples.

Results

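Integrins and laminins were examined in alphaTC1.9 cells, a mouse line of glucagon-producing pancreatic alpha cells. The members were all array rows whose gene symbol names an integrin alpha chain, an integrin beta chain numbered 1 to 8, or a laminin alpha, beta or gamma chain. The rule found 34 genes, 1 row each, among 19494 named genes: 16 integrin alpha chains, 8 integrin beta chains and 10 laminin chains. Itga1 and Itga10 match the rule but had no named row and were not analysed here.

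Both groups were alphaTC1.9 cells grown in medium with 16 mM glucose and serum and given no further treatment, per the labels. The control group had 4 arrays, and the other group had 4 arrays of cells in which insulin-degrading enzyme had been knocked down with a small interfering RNA (IDE-KD). The labels number the arrays of each group as biological replicates and do not say whether they came from separate cultures, so the p-values measure the spread between these arrays, which may be in part technical. Neither the kind of control nor the time from knockdown to harvest is given in the labels.

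Integrins are cell-surface receptors made of 1 alpha and 1 beta chain, which link the cytoskeleton to the extracellular matrix or to other cells. Laminins are large secreted proteins made of 1 alpha, 1 beta and 1 gamma chain, and they form the sheet-like core of basement membranes. Integrins that pair an alpha3, alpha6 or alpha7 chain with beta1, or alpha6 with beta4, are the classical laminin receptors, and in mouse islets much of the laminin around endocrine cells is known to lie in the basement membrane of blood vessels. An array reads the mRNA of each chain and shows neither protein nor pairing.

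The deposited values were log2 expression values (1 unit is a factor of 2). Medians over the tested rows lay between 5.10 and 5.17 on the 8 arrays, and correlations between arrays lay between 0.984 and 0.993. Ide, the targeted gene, read 8.62 ± 0.10 on control arrays and 8.01 ± 0.11 on IDE-KD arrays (SD, n = 4 each). Its groups did not overlap (log2 difference -0.62, SE 0.12), and its adjusted p in limma was 1.00. Of 6 measured alpha cell markers, Gcg, Irx2, Slc38a5 and Isl1 were above the intron-row level defined below on all 8 arrays, Irx1 on 5 and Ttr on 2. No leukocyte or platelet marker (0 of 10), fibroblast or stellate marker (0 of 8) or beta or delta cell marker (0 of 9) was above it on all 8, nor was any endothelial marker except Kdr (1 of 8) or any acinar or ductal marker except Sox9 (1 of 8). IDE-KD arrays 1 and 3 had the lowest means of the exon control rows, 6.95 and 6.92, where the remaining 6 arrays lay between 7.05 and 7.13. Their SDs over tested rows were also the lowest, 2.16 and 2.13 beside 2.20 to 2.25.

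Levels of different probe sets depend on their probes and were not ranked against each other. Each member was instead set against the intron control rows of its own array, 5222 probe sets placed in introns. The intron-row level was their 90th percentile, which lay between 6.28 and 6.44 on the 8 arrays. Of all tested rows 29.4% were above it on all 8 arrays, as were 58.4% of the exon control rows, 6.19% of the intron rows themselves and 0 of 23 antigenomic background rows. On single arrays GC-rich antigenomic rows did exceed it: the row with GC number 22 ran from 6.08 to 6.79 and that with 23 from 6.08 to 6.85. Values of Lamc1, Lamb2, Itgb3 and Itga2b and the lowest of Itga9 (6.82) lay in this range. The GC content of the members' probes was not examined. A gene below this level is not shown to be absent, because its signal cannot be told from that of intron probes.

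RefSeq promoter windows (GRCm38.p6) were at hand for 21 of the 34 members, and 7 are shown, picked after their CG dinucleotides were counted, so that CG-rich and CG-poor windows appear for chains above and below the intron-row level. Each is the 250 bases just before an annotated start, 5′ to 3′ on the gene's strand, with every CG in capitals. Itgb1 (chr8:128685404-128685653, plus strand, 21 CG), Itgav (chr2:83724147-83724396, plus strand, 18 CG), Itgb5 (chr16:33829415-33829664, plus strand, 18 CG) and Itgb7 (chr15:102231936-102232185, minus strand, 5 CG) belong to chains above the level on all 8 arrays. Lama5 (chr2:180225860-180226109, minus strand, 19 CG), Lamb1 (chr12:31265043-31265292, plus strand, 14 CG) and Lama2 (chr10:27616943-27617192, minus strand, 0 CG) were above it on no array.
Itgb1: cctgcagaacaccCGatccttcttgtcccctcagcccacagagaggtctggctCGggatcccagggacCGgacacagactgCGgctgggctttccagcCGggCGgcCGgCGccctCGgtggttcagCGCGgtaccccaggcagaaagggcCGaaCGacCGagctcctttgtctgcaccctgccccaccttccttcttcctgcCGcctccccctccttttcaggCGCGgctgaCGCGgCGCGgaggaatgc
Itgav: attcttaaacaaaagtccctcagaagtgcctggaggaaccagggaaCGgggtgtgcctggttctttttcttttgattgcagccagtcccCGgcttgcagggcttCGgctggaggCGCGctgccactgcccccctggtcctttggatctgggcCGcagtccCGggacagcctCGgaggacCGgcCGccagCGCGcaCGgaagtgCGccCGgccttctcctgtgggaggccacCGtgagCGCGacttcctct
Itgb5: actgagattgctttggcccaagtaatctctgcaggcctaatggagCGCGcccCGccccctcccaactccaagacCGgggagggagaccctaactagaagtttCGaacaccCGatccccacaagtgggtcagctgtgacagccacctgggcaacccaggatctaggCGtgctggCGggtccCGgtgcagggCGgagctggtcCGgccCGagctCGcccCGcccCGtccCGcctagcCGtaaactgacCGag
Itgb7: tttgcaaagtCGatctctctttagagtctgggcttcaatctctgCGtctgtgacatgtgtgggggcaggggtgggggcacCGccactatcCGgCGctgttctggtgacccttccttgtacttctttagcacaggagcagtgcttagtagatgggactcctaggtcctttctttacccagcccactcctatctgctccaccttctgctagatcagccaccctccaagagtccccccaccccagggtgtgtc
Lama5: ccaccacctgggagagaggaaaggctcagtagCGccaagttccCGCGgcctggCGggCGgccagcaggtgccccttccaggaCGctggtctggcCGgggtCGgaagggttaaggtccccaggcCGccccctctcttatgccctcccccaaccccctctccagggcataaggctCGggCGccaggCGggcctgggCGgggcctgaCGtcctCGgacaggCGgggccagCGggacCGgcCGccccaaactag
Lamb1: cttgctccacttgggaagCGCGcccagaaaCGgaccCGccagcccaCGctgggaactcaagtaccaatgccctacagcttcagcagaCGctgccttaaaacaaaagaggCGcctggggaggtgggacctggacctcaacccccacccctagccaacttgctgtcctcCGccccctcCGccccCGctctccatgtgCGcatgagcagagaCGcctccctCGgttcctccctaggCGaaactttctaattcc
Lama2: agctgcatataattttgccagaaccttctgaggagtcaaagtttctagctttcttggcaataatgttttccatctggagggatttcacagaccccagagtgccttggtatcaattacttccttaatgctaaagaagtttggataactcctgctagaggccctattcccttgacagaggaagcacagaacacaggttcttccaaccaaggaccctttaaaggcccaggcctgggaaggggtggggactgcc

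Over all 32851 windows of the table the median was 6 CG per window and 92.1% held at least 1. Taking the window with the most CG for each gene, the 6 members above the level on all 8 arrays with a window held 5 to 22 CG (median 18). The 13 members above it on no array held 0 to 19 (median 11). The ranges overlapped: Itgb7, above the level on all 8 arrays, had 5 CG, while Lama5 with 19 and Itga8 with 18 were above it on no array. The letters GGGCGG, a GC box, were found on either strand in 3 of the 6 windows (Itga3, Itgb1 and Itgb5), in 5 of the 13 (Lama5, Lamb1, Itga5, Itgam and Itga4) and in 32.7% of all windows. These matches describe the letters of the windows, and which start sites the cells used was not measured.

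Of the 34 members, 8 (23.5%) were above the intron-row level on all 8 arrays: the alpha chain genes Itga3, Itga6, Itga9 and Itgav, the beta chain genes Itgb1, Itgb5 and Itgb7, and the laminin gene Lamc1. A further 3 crossed it on part of the arrays, and 23 were above it on no array. Itga2b was above it on all 4 IDE-KD arrays and on 0 control arrays, Itgb3 on 4 IDE-KD and 3 control arrays, and Lamb2 on 3 IDE-KD and 2 control arrays. With the 75th percentile of the intron rows as the level the count was 11, those 8 and the 3 that crossed, and with the 95th percentile it was 6, without Itga9 and Lamc1.

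**Figure D1:**
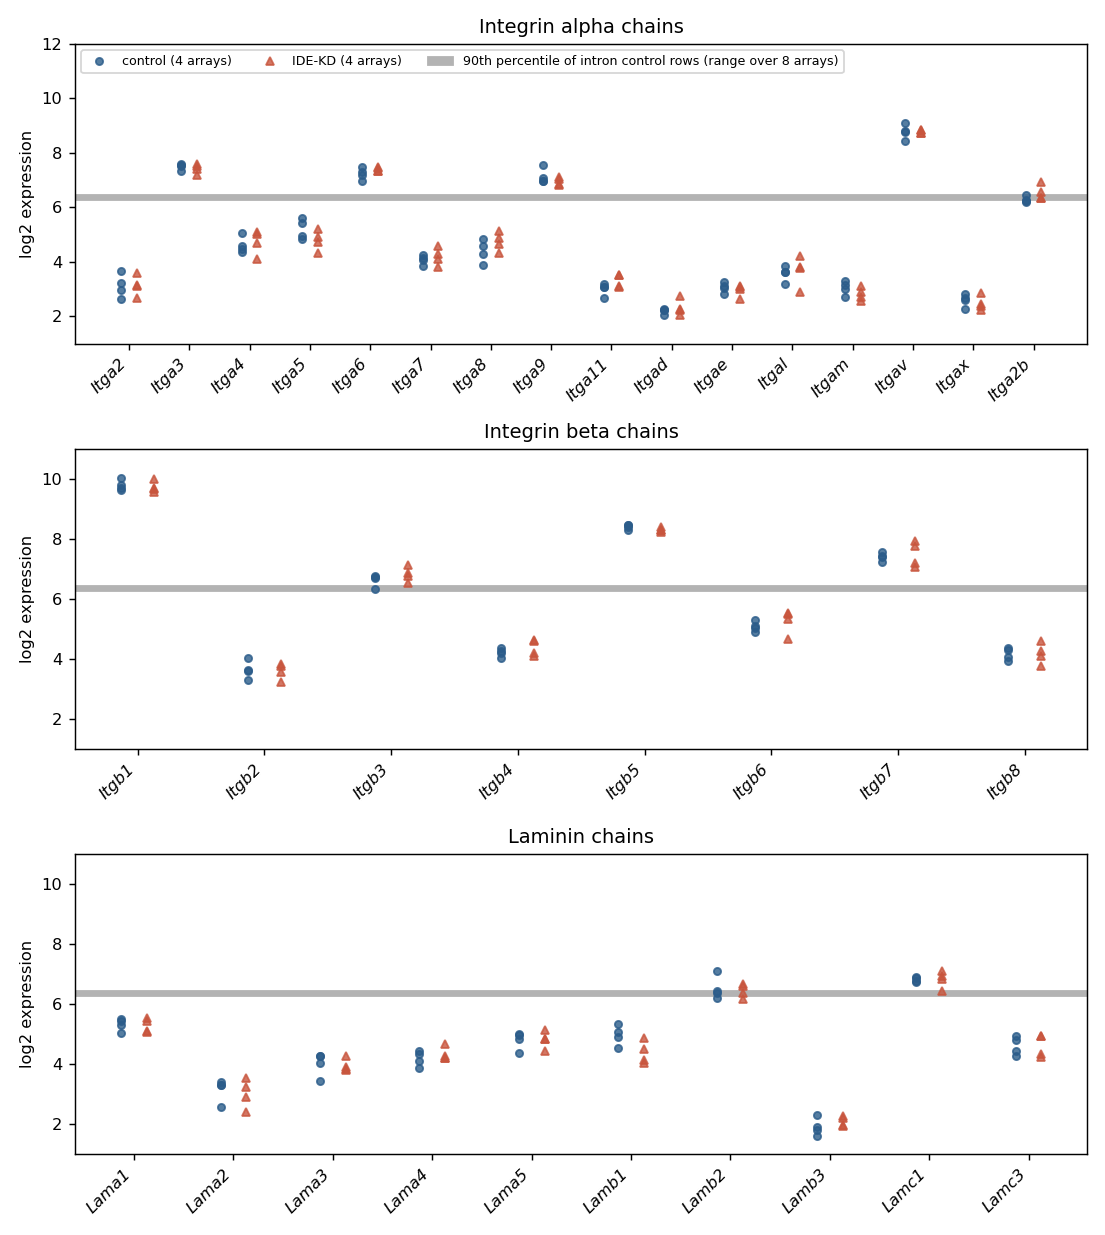
Log2 expression of each integrin and laminin gene on 4 control arrays (circles) and 4 IDE-KD arrays (triangles); the grey band is the range over the 8 arrays of the 90th percentile of the intron control rows, 6.28 to 6.44. All arrays of Itga3, Itga6, Itga9, Itgav, Itgb1, Itgb5 and Itgb7 lie above the band, the lowest Lamc1 array (IDE-KD 3, 6.44) reaches its upper edge while above its own array's level of 6.36, and all 5 laminin alpha chains lie below it.

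Itgb1 encodes the beta chain shared by most matrix-binding integrins. Its control arrays 1 to 4 read 10.05, 9.79, 9.70 and 9.63, and its IDE-KD arrays 9.58, 9.99, 9.70 and 9.67. At least 99.3% of the intron rows were lower on every array, and the groups overlapped almost completely. The log2 difference was -0.06 (SE 0.14), with a 95% confidence interval of -0.36 to 0.23.

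Of its possible partners, Itgav encodes the alpha chain of the vitronectin and latent TGF-beta receptors, which bind the RGD motif of matrix proteins. Control arrays 1 to 4 read 8.77, 8.45, 8.80 and 9.11, and IDE-KD arrays 8.83, 8.85, 8.74 and 8.74. The control arrays were spread more widely than the IDE-KD arrays and enclosed all of them (SD 0.27 and 0.06, n = 4 each), and the log2 difference was 0.0043 (SE 0.14). Itgb5, the beta chain that pairs with alphav in a vitronectin receptor, read 8.40 ± 0.08 on control arrays and 8.30 ± 0.07 on IDE-KD arrays (SD, n = 4), a log2 difference of -0.10 (SE 0.11).

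The alpha chains of laminin receptors were split. Itga3, whose product with beta1 binds laminins carrying the alpha3 or alpha5 chain, read 7.51, 7.59, 7.34 and 7.56 on control arrays 1 to 4 and 7.58, 7.20, 7.42 and 7.52 on IDE-KD arrays. The ranges overlapped, and between 96.6% and 97.6% of the intron rows were lower than Itga3 on each array. Itga6, whose product is a laminin receptor with beta1 or beta4, read 7.30, 7.47, 7.17 and 6.95 on control arrays and 7.34, 7.33, 7.49 and 7.45 on IDE-KD arrays. Control arrays 1, 3 and 4 were below all IDE-KD arrays and control array 2 was not (log2 difference 0.18, SE 0.13, 95% confidence interval -0.10 to 0.47), and without control replicate 4 the difference was 0.090.

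Itga7, the laminin receptor chain best known from muscle, lay between 3.81 and 4.58 and was above the intron-row level on no array. The same was true of Itgb4, the beta chain of hemidesmosomes that pairs with alpha6 alone, at 4.04 to 4.64. Of the 4 laminin receptor pairs, alpha3 beta1 and alpha6 beta1 thus had both chains above the level on all 8 arrays, and alpha7 beta1 and alpha6 beta4 had 1 chain above it.

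Itga9, whose product with beta1 binds tenascin-C and VCAM-1, read 7.14 ± 0.28 on control arrays and 6.96 ± 0.14 on IDE-KD arrays (SD, n = 4). Its log2 difference of -0.18 (SE 0.15) was -0.04 without control replicate 2, the highest of the 8 arrays at 7.54. Among other RGD-binding chains, Itga5, the fibronectin receptor chain, was above the level on no array, and Itga8, the nephronectin receptor chain, on none either.

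Of the collagen receptor alpha chains, Itga2 and Itga11 were low, and Itga1 and Itga10 were not analysed here. Itga2 lay between 2.64 and 3.66 and Itga11 between 2.69 and 3.54, so no collagen-binding pair with both chains measured had its alpha chain above the level. Itgb6 (4.66 to 5.52) and Itgb8 (3.77 to 4.59), the partners of alphav in activating latent TGF-beta, were above the level on no array.

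Among chains typical of blood cells, Itgb7 stood apart. Its product pairs with alpha4 or alphaE on lymphocytes. It read 7.23, 7.44, 7.41 and 7.55 on control arrays 1 to 4 and 7.93, 7.21, 7.76 and 7.07 on IDE-KD arrays, above the 95th percentile of the intron rows on all 8. IDE-KD arrays 1 and 3 were the highest and array 4 the lowest, so the knockdown values enclosed all control values. Neither partner was above the intron-row level on any array: Itga4 lay between 4.09 and 5.09 and Itgae between 2.64 and 3.27.

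The leukocyte chain Itgb2 (3.23 to 4.03) and its partners Itgal, Itgam, Itgax and Itgad (from 2.05 to 4.21) were above the level on no array. In RefSeq, Itgam, Itgax and Itgad lie close together on chromosome 7, with no protein-coding gene between Itgam and Itgax or between Itgax and Itgad. Ptprc, the pan-leukocyte gene CD45, lay between 3.17 and 4.12. The summed log2 level of the 10 leukocyte and platelet markers ran from 34.6 to 37.4 on control and from 34.1 to 38.3 on IDE-KD arrays.

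Itga2b and Itgb3 encode the platelet fibrinogen receptor, and Itgb3 also pairs with alphav. Itga2b read 6.26, 6.21, 6.44 and 6.23 on control arrays 1 to 4 and 6.55, 6.36, 6.94 and 6.34 on IDE-KD arrays, where IDE-KD arrays 1 and 3 were the highest of the 8. Its log2 difference was 0.26 (SE 0.15, 95% confidence interval -0.05 to 0.58; exact two-sided permutation p = 0.114), 0.13 without IDE-KD replicate 3 and 0.06 without IDE-KD arrays 1 and 3. The groups overlapped in level, although all IDE-KD arrays and no control array exceeded the intron-row level of their own array. Itgb3 read 6.63 ± 0.21 on control arrays and 6.82 ± 0.25 on IDE-KD arrays (SD, n = 4). Of the platelet markers beside them, Pf4 lay between 5.38 and 6.36, Gp9 between 5.47 and 6.17 and Ppbp between 2.16 and 2.72.

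Put together by textbook pairing, 5 of 22 integrin pairs with both chains measured had both above the intron-row level on all 8 arrays: alpha3, alpha6, alpha9 and alphav with beta1, and alphav with beta5. With the 75th percentile as the level, alphav beta3 and the platelet pair of Itga2b and Itgb3 joined them (7 pairs), and with the 95th percentile alpha9 beta1 dropped out (4 pairs). No pair of the leukocyte beta chains was among them at any of these 3 levels.

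**Figure D2:**
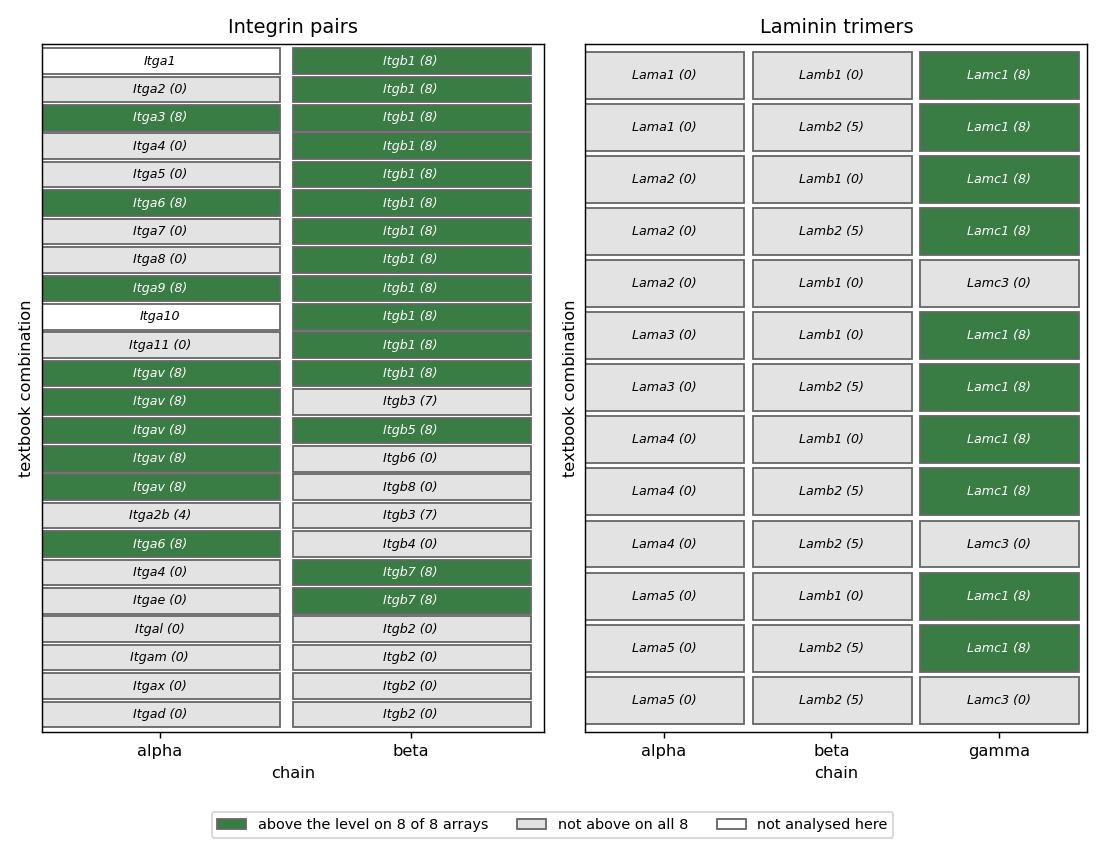
Each line is a textbook integrin pair (left) or laminin trimer (right), with 1 box per chain and, in brackets, the number of arrays out of 8 on which that gene was above the intron-row level. Green boxes mark 8 of 8; 5 integrin pairs and 0 laminin trimers are green throughout.

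The laminin side had a different make-up. Lamc1, the gamma chain of most laminins, was above the intron-row level on all 8 arrays. It read 6.91, 6.74, 6.77 and 6.87 on control arrays 1 to 4 and 6.93, 7.09, 6.44 and 6.84 on IDE-KD arrays. The group means were 6.82 in both, with IDE-KD arrays on both sides of the control range (log2 difference 0.0013, SE 0.14).

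No laminin alpha chain was above the level on any array. Alpha chains carry the globular domains to which integrins and dystroglycan bind. Lama5, the chain of widespread adult basement membranes, read 4.95, 4.36, 4.98 and 4.84 on control arrays and 5.12, 4.83, 4.83 and 4.43 on IDE-KD arrays, with the groups overlapping. Lama1, the embryonic chain, lay between 5.04 and 5.54, Lama2, the muscle chain, between 2.39 and 3.52, Lama3, the epithelial chain, between 3.42 and 4.25, and Lama4, the vascular chain, between 3.87 and 4.65. Accordingly 0 of 13 trimers with all chains measured had every chain above the level, which fixes 0 at the stricter 95th percentile. The count was also 0 at the 75th percentile. With the median of all control rows as the level it was 1, the trimer of Lama1, Lamb2 and Lamc1.

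Of the beta chains, Lamb2 was above the level on 5 arrays (6.15 to 7.09, with control array 2 the highest) and Lamb3, which joins alpha3 in epithelial laminin, on none (1.60 to 2.29). The gamma chain gene Lamc3 lay between 4.21 and 4.94.

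Lamb1, the beta chain of the laminins that start basement membrane assembly in the embryo, had the lowest fitted difference of the 34 members. Control arrays 1 to 4 read 4.54, 4.90, 5.07 and 5.34, and IDE-KD arrays 4.02, 4.48, 4.14 and 4.87. Of the IDE-KD arrays, 3 were below all control arrays, while array 4 was above control array 1, so the groups overlapped. The means were 4.96 ± 0.33 on control arrays and 4.38 ± 0.38 on IDE-KD arrays (SD, n = 4), which put the log2 difference at -0.58 (SE 0.20), with a 95% confidence interval of -1.02 to -0.14. limma gave an unadjusted p of 0.0135, rank 253 of 22142 rows, and an adjusted p of 1.00, and p was 0.0571 in an exact two-sided permutation test, which for 4 against 4 arrays cannot go below 0.0286. All 8 values were below the intron-row level. IDE-KD arrays 1 and 3, which had the lowest exon control means, also had the lowest Lamb1 values; without both the difference was -0.29 (unadjusted p = 0.203 in limma). The part of these arrays' properties in the Lamb1 difference was not tested.

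**Figure D3:**
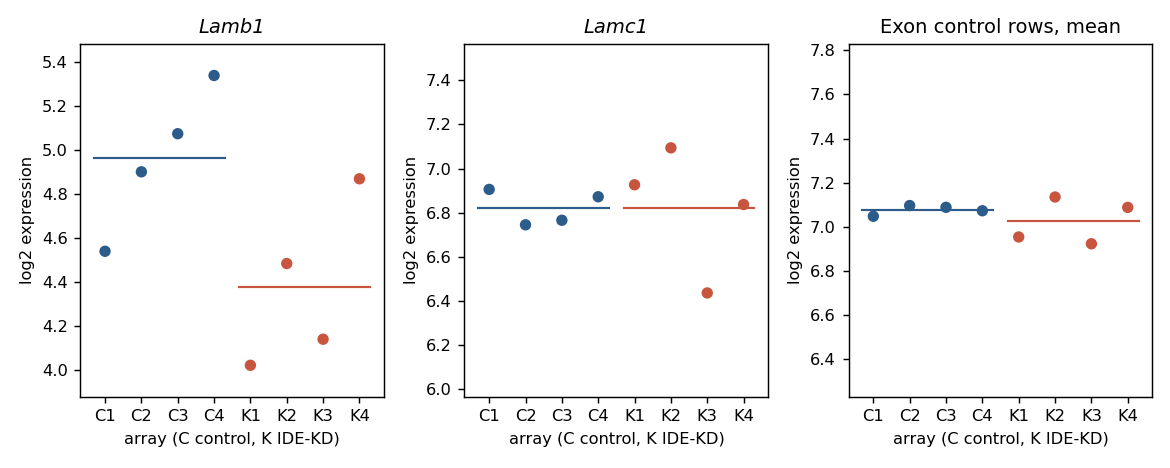
Log2 expression of Lamb1 and Lamc1 and the mean of the exon control rows on each array (C1 to C4 control, K1 to K4 IDE-KD; horizontal lines are group means; each panel spans the same height in log2 units). Lamb1 ranges from 4.54 to 5.34 in control and 4.02 to 4.87 in IDE-KD arrays, while the Lamc1 means are both 6.82, and the exon control mean is lowest on K1 and K3.

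Across the set, the comparison of IDE-KD with control cells asked which adhesion genes differ after knockdown. limma called 0 of 34 members at an adjusted p under 0.05, as it called 0% of all 22142 rows, with 1.00 as the smallest adjusted p of a member. Lamb1 was the 1 member with an unadjusted limma p under 0.05, beside 4.59% of all rows, or 1.91% when only lower rows are counted. The groups did not overlap at 0 members, against 2.80% of all rows. Fitted differences were positive for 19 members and negative for 15, with a median of 0.0033 beside 0.0074 over all rows, and the median size was 0.11 beside 0.10. The 95% confidence interval left out a change of 2-fold for 33 members, all but Lamb1, and of 1.5-fold for 28. Over all tested rows the interval left out 2-fold for 99.7% and 1.5-fold for 83.6%. These intervals concern the array values. For the 23 members above the intron-row level on no array they do not exclude such changes in the mRNA itself, because low signals are compressed.

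**Figure D4:**
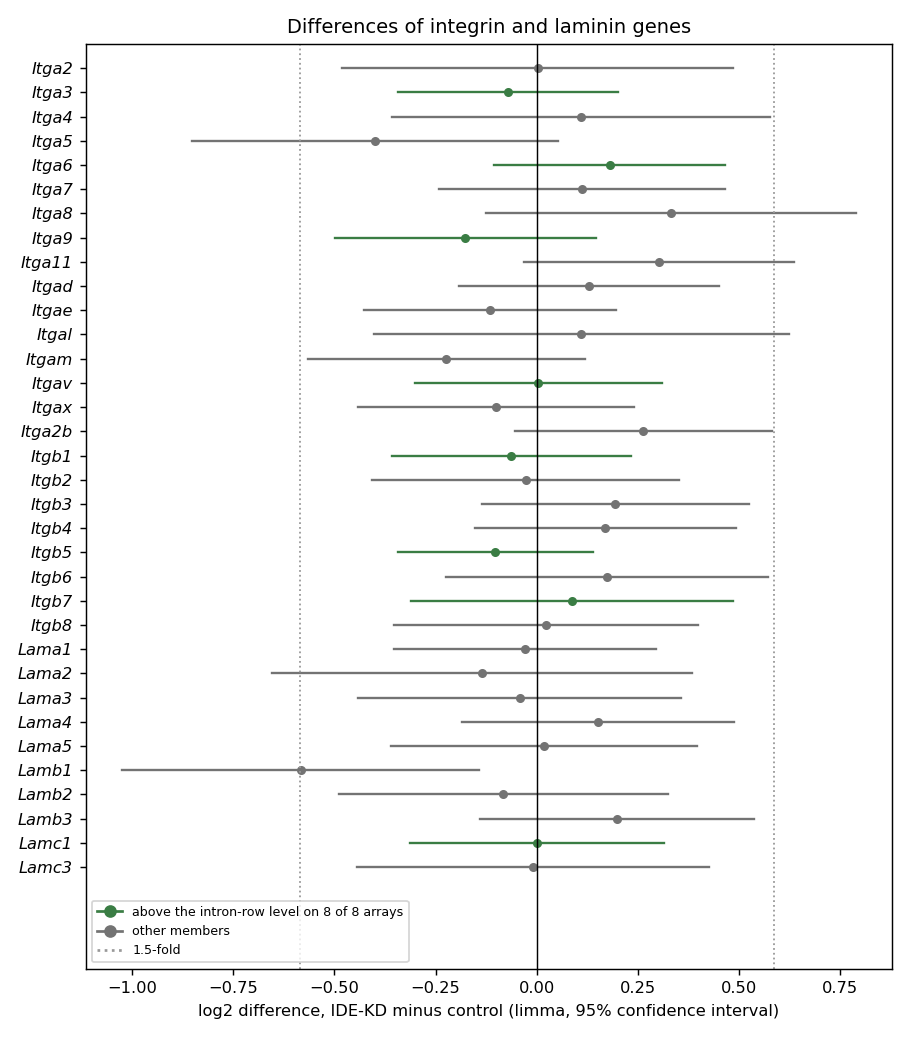
Log2 difference (IDE-KD minus control, 4 arrays each) of every member with its 95% confidence interval from limma; green marks members above the intron-row level on 8 of 8 arrays, and dotted lines mark a 1.5-fold change. The interval of Lamb1, -1.02 to -0.14, lies wholly below 0, and the 8 green intervals all stay inside the dotted lines.

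By family, 10 integrin alpha chains had positive and 6 negative differences (median 0.06), 5 beta chains positive and 3 negative (median 0.06), and 4 laminin chains positive and 6 negative (median -0.02). Of the 6 members whose intervals did not leave out 1.5-fold (Itga5, Itga8, Itga11, Itgal, Lama2 and Lamb1), every one was above the intron-row level on no array.

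Itga5, the alpha chain of the main fibronectin receptor, read 4.83, 5.61, 5.43 and 4.95 on control arrays 1 to 4 and 5.22, 4.34, 4.75 and 4.92 on IDE-KD arrays. IDE-KD arrays 1 and 4 stood among the control values and array 2 lay lowest. The log2 difference was -0.40 (SE 0.21; exact two-sided permutation p = 0.171), or -0.24 without IDE-KD replicate 2 and -0.27 without control replicate 2. Itga8 read 4.58, 4.85, 3.90 and 4.28 on control arrays and 4.86, 4.32, 5.12 and 4.64 on IDE-KD arrays, with wide overlap and a log2 difference of 0.33 (SE 0.21). It was 0.17 without control replicate 3, 0.20 without IDE-KD replicate 3 and 0.076 without IDE-KD arrays 1 and 3. Itga11, a collagen receptor chain of fibroblasts, read 3.09, 2.69, 3.18 and 3.07 on control arrays and 3.08, 3.51, 3.54 and 3.11 on IDE-KD arrays. Its log2 difference was 0.30 (SE 0.15; exact two-sided permutation p = 0.171), or 0.20 without control replicate 2. Itgam, the alpha chain of the macrophage integrin Mac-1, read 3.31, 2.71, 3.13 and 2.99 on control and 2.69, 3.10, 2.57 and 2.88 on IDE-KD arrays (log2 difference -0.22, SE 0.16; -0.13 without control replicate 1, -0.14 without IDE-KD replicate 3 and -0.044 without IDE-KD arrays 1 and 3).

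Ligands other than laminin gave a partly matching picture. Of 20 measured integrin ligand genes, 5 were above the intron-row level on all 8 arrays: Fn1 (fibronectin, 9.49 to 9.93), Npnt (nephronectin, 9.67 to 10.10), Mfge8, an RGD protein bound by alphav beta3 and alphav beta5 (7.67 on average in control), Ccn1 (7.45 to 7.89) and Adam9 (8.98 to 9.32). Fibronectin and nephronectin mRNA were therefore above the level while Itga5 and Itga8, the alpha chains of their best-known receptors, were not. Vtn, the vitronectin gene, lay between 4.50 and 5.56. None of the 20 passed the adjusted threshold in either direction (12 positive, 8 negative, median 0.03); those with the smallest p were Tnc at 0.45 (SE 0.18), Icam2 at 0.26 (SE 0.14) and Npnt at -0.20 (SE 0.12).

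Of 19 basement membrane partners, Smoc1 and Fras1 were above the level on all 8 arrays and Agrn, whose proteoglycan product binds laminin, on 6. The nidogen genes Nid1 and Nid2, the perlecan gene Hspg2 and all 6 collagen IV chain genes were above it on none. In this list 0 passed, with 13 positive and 6 negative differences (median 0.09). Ntn4, a laminin-related netrin, had the smallest p, at 0.44 (SE 0.13) from 5.21 to 5.64 and without overlap of the groups, followed by Col4a2 at 0.51 (SE 0.22) and Col18a1 at 0.27 (SE 0.12). All 3 were below the level on every array. Positive differences were also found for 7 of 9 beta and delta cell markers (median 0.13), 6 of 8 acinar and ductal markers (median 0.16), 7 of 8 fibroblast and stellate cell markers (median 0.10), 7 of 8 endothelial markers (median 0.06) and 6 of 10 leukocyte and platelet markers (median 0.04). The endothelial marker with a negative difference was Kdr, the only one above the level on all 8 arrays, at -0.40 (SE 0.11) and without overlap of the groups. Most markers of these 5 lists were above the level on no array. The median difference was 0.0074 over all tested rows. It was -0.017 over the 12616 rows whose mean exceeded the median of all control rows. The share of positive differences over all rows was not counted. The part of low signals or of other cells in these values was not tested.

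In the list of laminin receptors that are not integrins, 7 of 9 genes were above the level on all 8 arrays. They were Dag1, Bcam, Rpsa, Sdc1, Sdc2, Sdc3 and Sgcb. The list is a broad one: Rpsa is also a ribosomal protein gene, and Sgca and Sgcb encode sarcoglycans, which are not laminin receptors themselves. Dag1, the dystroglycan gene, read 9.31 ± 0.05 on control arrays and 9.35 ± 0.14 on IDE-KD arrays (SD, n = 4), and Bcam, which binds the laminin alpha5 chain, lay between 7.51 and 7.90. None passed (6 positive, 3 negative, median 0.02). The syndecan gene Sdc4 (0.31, SE 0.12) and the sarcoglycan gene Sgcb (0.23, SE 0.12) had groups without overlap, and Sdc3 read -0.31 (SE 0.14). Of 10 tetraspanins and other integrin partners, 7 were above the level, among them Cd151, which binds alpha3 beta1 and alpha6 beta1 (7.71 to 8.21), and Slc3a2, the CD98 heavy chain that binds beta1 tails (10.12 to 10.43). None of these passed (7 positive, 3 negative, median 0.06); the smallest p belonged to Cd82 at 0.22 (SE 0.16), Cd47 at 0.12 (SE 0.11) and Cav1 at 0.16 (SE 0.14).

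Inside the cell, 16 of 28 measured focal adhesion genes were above the level on all 8 arrays, among them Tln1 (talin) and Fermt2 (kindlin-2), which bind beta chain tails and activate integrins, and Vcl, Ilk, Parva and Lims1. None passed, with 11 positive and 17 negative differences (median -0.06). Actn1, the actin cross-linker alpha-actinin-1, had the smallest p, with 7.36 ± 0.18 on control arrays and 6.96 ± 0.19 on IDE-KD arrays (SD, n = 4), no overlap of the groups and a log2 difference of -0.40 (SE 0.14). Itgb1bp1, whose product competes with talin for the beta1 tail, read -0.36 (SE 0.17), and the kindlin gene Fermt1 0.27 (SE 0.17). Groups without overlap were seen at 1 of 28 focal adhesion genes, 1 of 19 basement membrane partners and 1 of 20 other ligands. The counts were 2 of 9 genes in the list of non-integrin laminin receptors and 0 of 10 integrin partners. Over all rows the share was 2.80%.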

How the data were processed

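RNA of 4 control and 4 IDE-KD samples was read on Clariom S arrays, where the signals of several probes are combined into 1 value per transcript cluster. The authors deposited these values on the log2 scale; RMA, oligo and limma are named, without versions or roles, per the submitters' processing notes. RMA in its usual form equalises the distributions of all arrays, which would remove a global change in RNA, and compresses low signals. No genome build is stated for the arrays, so coordinates of probe sets are not printed.

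Of 29129 rows, 22142 were tested, 6923 were array control rows and 64 unplaced rows were left out. Symbols came from the platform annotation (19527 named rows). Differences were fitted on all 8 arrays with limma 3.58.1 in R 4.3.3 (lmFit, eBayes) without covariates, with Benjamini-Hochberg adjustment over all tested rows; the fit was tested on artificial data with known changes. Single values were also compared with exact two-sided permutation tests. Precision is limited by the number of arrays: the median half-width of the members' 95% intervals was 0.34.

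The members and lists were chosen with earlier results of these data known. All members may be named; values by array are given for Lamb1, the 6 members with the smallest p, and Itgb1, Itga3, Itga6, Itgav, Lama5 and Lamc1 (Itgb7 was added after its values were seen). From each adhesion list the 3 genes with the smallest p are given; further list genes were chosen for their role. A gene with several rows was represented by the row with the highest mean. Same-numbered control and IDE-KD arrays deviated together only weakly (correlations 0.0876 to 0.129), so no pairing was used. Between the groups, arrays numbered 1 and 3 correlated at 0.0876 to 0.169 and arrays numbered 2 and 4 at 0.0247 to 0.209. Correlations of 1 or 3 with 2 or 4 ran from -0.225 to -0.048. The source of this pattern was not tested. Alternatives covered normalization, variance model, array weights, a filter on dim rows, the replicate block, left-out arrays and other intron-row levels.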

Additional observations from a re-analysis of the deposited data

Results flagged for a closer look

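In 2 of 68 groups of 4 arrays, 1 array lay far from the other 3, by a criterion that chance meets in about 1 of 20 groups. Itgb3 read 6.32 on control array 4, against 6.70 to 6.75 on the other control arrays, and this was the array on which it missed the intron-row level. Without that array its log2 difference was 0.09 in place of 0.19. Without IDE-KD replicate 4, its highest array, it was also 0.09. Lama2 read 2.55 on control array 2, against 3.31 to 3.40 on the other control arrays, with all values far below the intron-row level. Without it the difference was -0.33 in place of -0.14.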

How the results depend on the processing

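limma called 0 members and 0 rows at an adjusted p under 0.05 under every alternative, the replicate block included (value 0 with the block; smallest adjusted p of any row over all alternatives 0.152). With the block the Lamb1 difference was the same, -0.58, with an unadjusted p of 0.0012 and an adjusted p of 0.761. With 1 array left out Lamb1 ranged from -0.75 to -0.46, and the median over members from -0.02 to 0.09; without IDE-KD arrays 1 and 3, an alternative chosen after seeing the data, they were -0.29 and -0.14. Members without overlap numbered 0 to 2 with 1 array left out (0 of 34 with all arrays), beside 4.56% to 6.59% of all rows, and 2 without IDE-KD arrays 1 and 3 (16.9% of all rows). With 1 array left out they were Itgb5 and Lamb1 without control replicate 1, Itga6 and Lamb3 without control replicate 2, Itga2b without control replicate 3, Itgb3 without IDE-KD replicate 3, and Itgb6 and Lamb1 without IDE-KD replicate 4. Without IDE-KD arrays 1 and 3 they were Itgb3 and Itgb7.

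With the median of all control rows as the level, 13 members, 8 integrin pairs and 1 laminin trimer (Lama1, Lamb2 and Lamc1) were above it; with 1 array left out the counts were 8 to 9, 5 to 6 and 0.

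The sign of 20 members with small differences (at most 0.17 in size) changed under at least 1 alternative. With array weights Itga2 read -0.066, Itgav -0.019, Itgb8 -0.023 and Lama5 -0.056. With array medians subtracted Itga2 read -0.011, Itgav -0.0092 and Lamc1 -0.012. With cyclic loess Itga2 read -0.044, Itgb8 -0.022 and Lama5 -0.0087, and with quantile normalization again -0.051, -0.023 and -0.0058. With 1 array left out the ranges were -0.11 to 0.11 for Itgav, -0.15 to 0.022 for Itgb1, -0.12 to 0.12 for Lamc3, -0.16 to 0.18 for Itga2, -0.12 to 0.16 for Itgb8, -0.12 to 0.050 for Lama1, -0.23 to 0.045 for Lama3, -0.12 to 0.14 for Lama5, -0.19 to 0.10 for Lamb2, -0.089 to 0.13 for Lamc1, -0.066 to 0.37 for Itgal, -0.14 to 0.10 for Itgb2, -0.014 to 0.32 for Itga4, -0.015 to 0.24 for Itga7, -0.059 to 0.23 for Itgb7, -0.12 to 0.0069 for Itga3, -0.33 to 0.069 for Lama2 and -0.0071 to 0.22 for Itgad. Without IDE-KD arrays 1 and 3 the values were -0.22 for Itga2, -0.22 for Itga4, -0.057 for Itgad, -0.23 for Itgal, 0.032 for Itgb1, -0.066 for Itgb4, -0.079 for Itgb6, -0.27 for Itgb7, -0.14 for Itgb8 and -0.15 for Lama5. The cause of these changes was not tested. The other 14 members, Lamb1 among them, kept their sign under all alternatives. Signals near the intron rows limit what can be said of the 23 members below the level.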

Other observations

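Some members varied more between arrays of a group than between groups. Lamc3 read 4.94 and 4.78 on control arrays 1 and 3 and 4.93 and 4.92 on IDE-KD arrays 1 and 3, but 4.26 and 4.42 on control arrays 2 and 4 and 4.21 and 4.31 on IDE-KD arrays 2 and 4. Itga4 read 5.06, 5.09 and 5.01 on control array 1 and IDE-KD arrays 1 and 3, and 4.09 to 4.69 on the others. The median deviation of the 34 members from their control means was highest on IDE-KD array 3 (0.22) and lowest on IDE-KD array 4 (-0.09). These arrays were singled out after their values were seen.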
